A study of Mus musculus with 12 samples.

Results

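Mitochondrial beta-oxidation and ketogenesis were followed through 33 genes of mouse liver, chosen by gene symbol from the known enzymes of the pathway. The rule used no measured value, but earlier results of these data were known when the genes were chosen. These genes were 33 of the 16821 genes listed in the deposited tables, and all 33 were high enough to be tested. Activation of fatty acids was represented by 7 genes, the carnitine shuttle by 3, the acyl-CoA dehydrogenases by 10, the steps from hydration to thiolysis by 5, the auxiliary enzymes for unsaturated chains by 3, electron transfer by 3 and ketogenesis by 2.

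The livers came from 12 adult male C57BL/6J mice. The 6 Con mice were sedentary, and the 6 Exe mice followed a chronic exercise program of moderate treadmill running for 6 weeks. The livers were flushed with saline before they were taken, and each mouse gave 1 RNA-seq library, named here Con 1 to Con 6 and Exe 1 to Exe 6. Expression was given by the authors as FPKM, in which the fragments of a gene are divided by its transcript length and by the mapped total, so that levels of different genes can be set side by side on a scale per length.

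Fatty acids enter mitochondrial beta-oxidation after acyl-CoA synthetases have joined them to coenzyme A and the carnitine shuttle has carried long chains through the inner membrane. Each turn of the spiral then oxidizes, hydrates, oxidizes again and cleaves the chain, and its electrons pass to the respiratory chain partly through the electron transfer flavoprotein. In the fasted or exercising animal the liver turns much of the acetyl-CoA made in this way into ketone bodies for other organs, and many of these genes are known targets of the fatty acid receptor PPARA.

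Promoter sequences were read for most of the genes. Of the 33 genes, 29 matched the RefSeq promoter table of GRCm38.p6 with 31 windows, and 250 bases before each start were searched on both strands. This build is older than the GRCm39 used by the authors, so these coordinates belong to GRCm38.p6 alone. The letters AGGTCA, the core motif bound by PPARA and other nuclear receptors, were present in the window of 5 genes (17.2% of 29), namely Acadm, Acadvl, Acsm1, Cpt1a and Echs1. Counted by window, they were in 5 of the 31 windows of the 29 genes and in 14.0% of all 32851 windows of the table. The stretches of Cpt1a, Acadm and Acadvl are printed because these enzymes open the carnitine shuttle and the oxidation of long and medium chains, with AGGTCA, or TGACCT where it lies on the other strand, in capitals. They lie at chr19:3323051-3323284 (plus strand), chr3:153944644-153944893 (minus strand) and chr11:70015429-70015678 (minus strand) and hold no annotated exon.
Cpt1a: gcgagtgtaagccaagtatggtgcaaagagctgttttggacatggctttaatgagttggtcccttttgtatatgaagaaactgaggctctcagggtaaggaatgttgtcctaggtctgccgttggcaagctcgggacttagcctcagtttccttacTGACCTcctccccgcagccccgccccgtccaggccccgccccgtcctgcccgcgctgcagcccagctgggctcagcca
Acadm: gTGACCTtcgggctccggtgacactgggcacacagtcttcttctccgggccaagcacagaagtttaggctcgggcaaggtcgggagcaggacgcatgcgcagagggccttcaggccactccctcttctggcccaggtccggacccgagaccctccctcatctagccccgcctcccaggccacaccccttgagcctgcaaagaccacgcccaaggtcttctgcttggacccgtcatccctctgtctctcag
Acadvl: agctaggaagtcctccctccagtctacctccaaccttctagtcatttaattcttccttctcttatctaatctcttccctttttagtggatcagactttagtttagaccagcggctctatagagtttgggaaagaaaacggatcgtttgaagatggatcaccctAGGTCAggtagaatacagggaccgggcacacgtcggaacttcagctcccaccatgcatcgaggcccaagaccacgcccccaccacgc
The paired motif of 2 such cores with 1 base between them, AGGTCANAGGTCA, was in 0 of the 31 windows of the 29 genes and in 0.0335% of all windows, which says only that these letters were not in these windows.

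The GC box GGGCGG was found before 17 of the 29 genes (58.6%), in 17 of their 31 windows, and in 32.7% of all windows. CCAAT was found before 14 of these genes (48.3%), in 14 of the 31 windows, and in 33.8% of all windows. Hadha and Hadhb, which encode the alpha and beta subunits of the mitochondrial trifunctional protein, lie head to head on chromosome 5 and are transcribed away from each other. The stretch between them that holds no annotated exon is 85 bases long, at chr5:30155163-30155247, and is printed on the strand of Hadhb with both of its GGGCGG boxes in capitals, because these subunits were the most tightly matched of the 4 pairs of genes compared.
Hadha and Hadhb: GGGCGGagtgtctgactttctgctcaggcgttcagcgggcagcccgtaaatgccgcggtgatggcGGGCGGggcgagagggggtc
These are matches of letters, not measured binding sites.

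The genes spanned a wide range of levels. Acaa2, the thiolase that cleaves medium and long chains, was the highest at 608 ± 54.8 FPKM (SD, n = 12), followed by Etfb at 414 ± 31.9 FPKM, Etfa at 227 ± 16.6 FPKM and Acsm1 at 222 ± 17.4 FPKM. Acad12 was the lowest at 2.86 ± 0.31 FPKM, and 5 genes (Acad9, Acsl4, Acad10, Acsl3 and Acad12) had a mean below 12 FPKM. A mean of at least 50 FPKM was reached by 25 genes, and 15 of them reached 100 FPKM. When the genes were placed in order of their mean level, 9 of the 32 pairs of neighbours kept their order in all 12 mice. Acaa2 was above Etfb and Etfb above Etfa in every mouse, whereas Etfa was above Acsm1 in 8 mice and Acadm above Eci1 in 6.

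**Figure D1:**
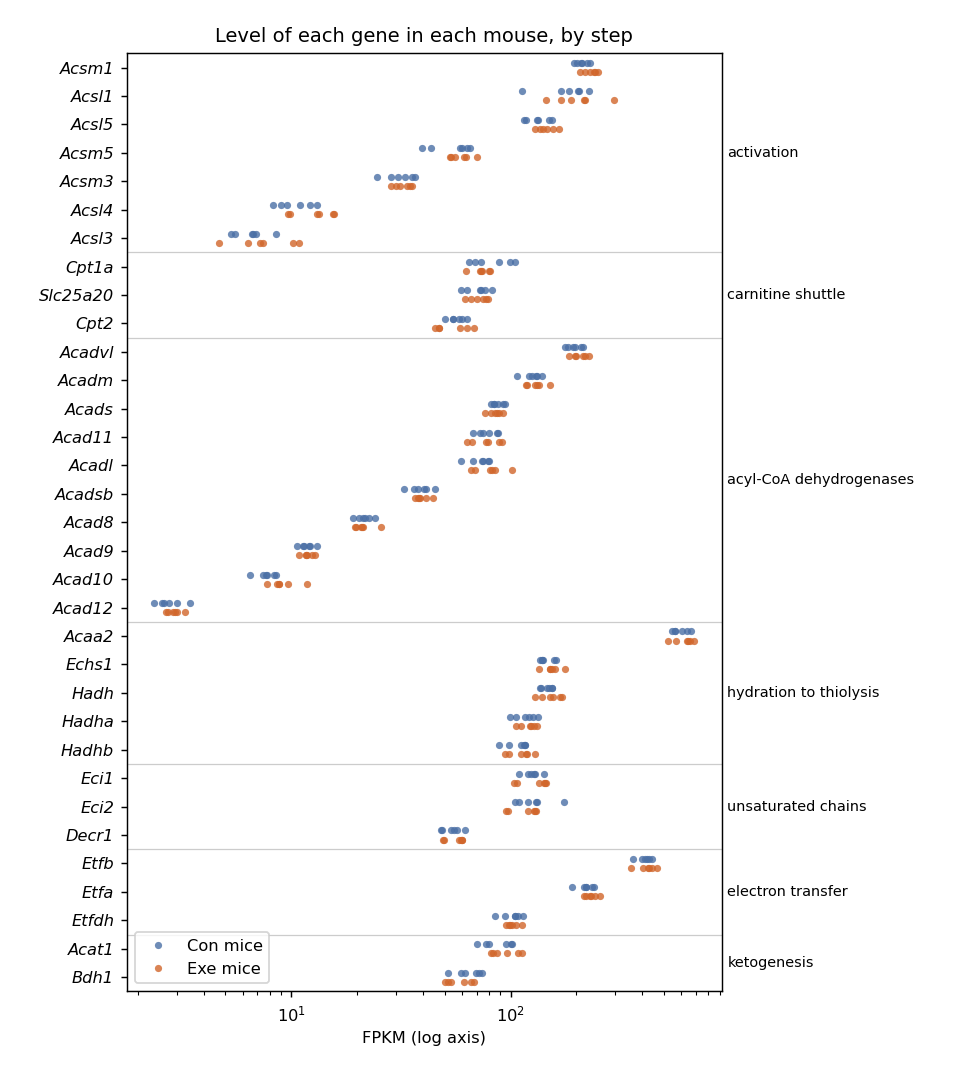
FPKM of each of the 33 genes in each of the 12 mice on a logarithmic axis, with genes grouped by step and 1 point per mouse (blue, Con; orange, Exe). The points of both groups overlap for every gene, and the mean levels run from 2.86 FPKM (Acad12) to 608 FPKM (Acaa2).

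Some of the genes share transcript sequence with other genes, on the same or the opposite strand. For 21 of the 33 genes no stretch of 100 bases of the longest GENCODE M21 coding transcript was found in a transcript of another gene. Both strands were searched, so an overlap may lie with a gene on the opposite strand. The overlap was 65.2% for Etfb, 52.8% for Hadhb and 26.5% for Acsm3, mostly with predicted transcripts or, for Acsm3, with Eri2, and between 10.2% and 11.2% for Acad9, Acad11, Acad10 and Acad12. Acad10 and Acad12 shared their stretches with each other. How the authors' counting divided such fragments is not given, so the levels of these genes are uncertain to that extent.

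Compared with the Con group, none of the 33 genes differed in the Exe group at an adjusted p of 0.05 (limma, Benjamini-Hochberg over 10241 genes), where 0% of all genes passed. With a count-based test the paper did call genes at a Q-value of 0.05 and a log2 fold change beyond 1, Cyp4a10 and Cyp4a14 among them. The fit on FPKM called none of those genes, so the 0% does not say that these livers were unchanged. The smallest adjusted p among the 33 was 0.793. At an unadjusted p of 0.05, 2 of the 33 genes, Acad10 and Acsm1, were higher in the Exe mice, beside 6.21% of all genes tested (437 genes or 4.27% higher, 199 genes or 1.94% lower). The estimate was above 0 for 26 of the 33 genes and below 0 for 7, beside 57.5% of all genes above 0 and 42.5% below, and the median log2 fold change was 0.050 beside 0.016 for all genes. These are differences of log2(FPKM + 1), which understate the change of low genes, and in whole liver fewer cells of a type and less RNA per cell cannot be told apart.

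**Figure D2:**
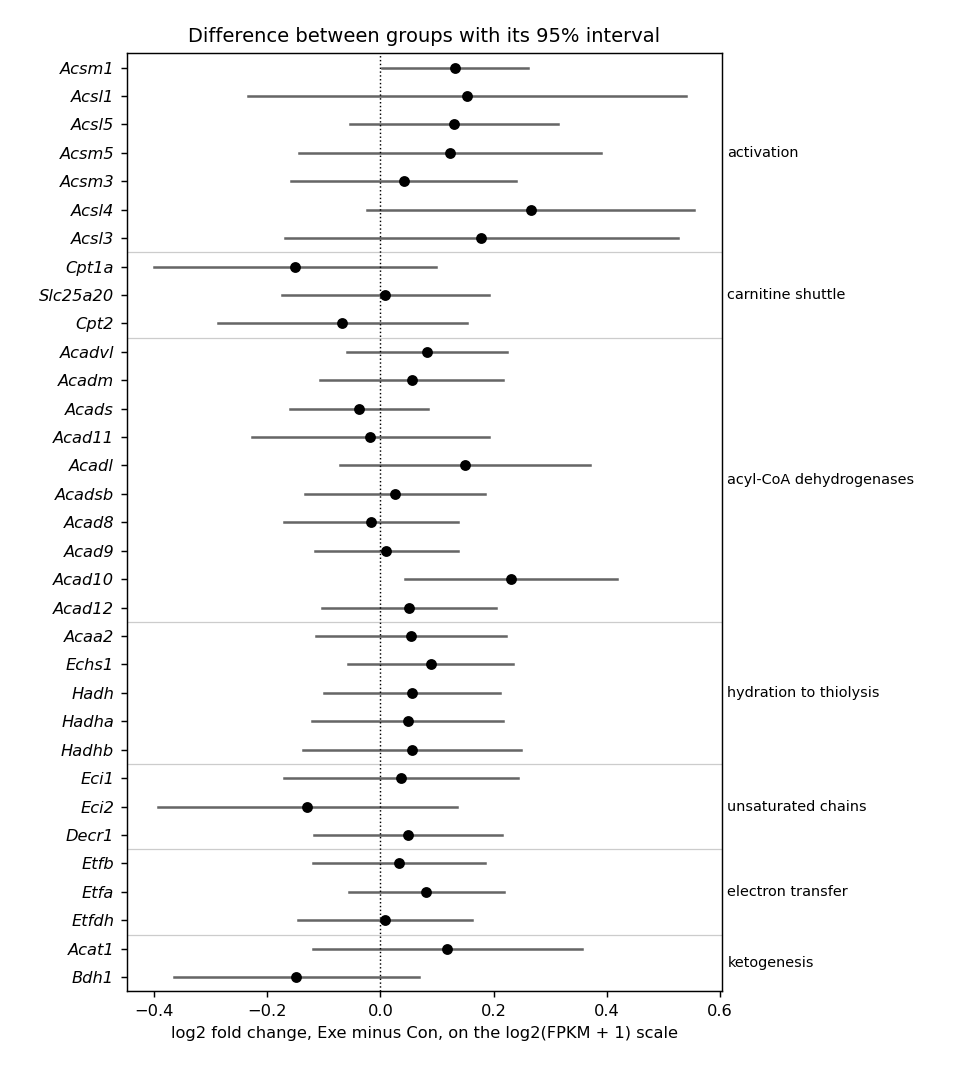
Log2 fold change of each gene, Exe minus Con on the log2(FPKM + 1) scale, as points with 95% intervals from limma as bars and the dotted line at 0. The intervals of Acad10 and Acsm1 lie above 0 and the other 31 span it.

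The size of the median depended on the scaling, and its sign on 2 mice. After quantile normalization 18 of the 33 genes were above 0 (52.9% of all genes) with a median of 0.0050, and after scaling each mouse to the same FPKM sum 28 were above 0 (69.7% of all genes) with a median of 0.086. The genes at an unadjusted p of 0.05 over the whole table split into 351 higher and 267 lower with the first scaling, and into 694 higher and 100 lower with the second. Without Con 1 and Exe 2 together, 13 of the 33 were above 0 (49.2% of all genes), with a median of -0.0053 beside -0.0016 for all genes, and 0 of the 33 had an unadjusted p of 0.05 (3.9% of all genes).

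All 7 genes of fatty acid activation had a higher mean in the Exe mice. Their median log2 fold change was 0.13, and 1 of them, Acsm1, reached an unadjusted p of 0.05. Acsm1, a synthetase for medium-chain fatty acids, ran from 195 to 229 FPKM in the Con mice (median 211) and from 209 to 252 FPKM in the Exe mice (median 236). The 4 highest values all came from Exe mice that exceeded the whole Con range, and Exe 5, the lowest of its group, lay within it. The log2 fold change was 0.13 (95% interval 0.0026 to 0.26, adjusted p = 0.799).

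Acsl1, the main long-chain acyl-CoA synthetase of liver, was the most variable gene of the pathway. It ranged from 113 to 229 FPKM in the Con mice (median 194) and from 145 to 295 FPKM in the Exe mice (median 203). The highest mouse, Exe 6, stood 2.61 times above the lowest, Con 1, and the groups overlapped over most of their range (log2 fold change 0.15, 95% interval -0.23 to 0.54, adjusted p = 0.943). Without Con 1 its log2 fold change was 0.019, and without Exe 5 it was 0.25.

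Acsl5, a synthetase of mitochondria and the endoplasmic reticulum, ranged from 115 to 155 FPKM among the Con mice (median 133) and from 129 to 167 FPKM in the Exe mice (median 143). The Exe values were above the Con median in 5 of 6 mice, and 2 of them were above every Con mouse. Its log2 fold change was 0.13 (95% interval -0.055 to 0.31, adjusted p = 0.899).

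The largest estimate of the pathway belonged to Acsl4, a synthetase that prefers arachidonic acid. It ran from 8.22 to 13.1 FPKM in the Con mice (median 10.3) and from 9.66 to 15.7 FPKM in the Exe mice (median 13.3), so that 4 Exe values exceeded the Con range and the other 2 did not. The log2 fold change was 0.27 (95% interval -0.024 to 0.56, adjusted p = 0.820).

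Acsl3, which acts in lipid droplet formation, was low and scattered, with 5.30 to 8.49 FPKM in the Con mice (median 6.68) and 4.69 to 10.8 FPKM in the Exe mice (median 7.31). Both the highest and the lowest mouse were Exe mice (log2 fold change 0.18, 95% interval -0.17 to 0.53, adjusted p = 0.931). Without Exe 1 the log2 fold change of Acsl3 was 0.084, and without Exe 3 it was 0.29. The medium-chain synthetases Acsm5 (57.3 FPKM on average) and Acsm3 (31.9 FPKM) had log2 fold changes of 0.12 and 0.041, which were 0.035 without Con 1 and -0.024 without Con 2.

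In the carnitine shuttle 1 of 3 genes was higher on average in the Exe mice, and the median log2 fold change was -0.067. Cpt1a, the liver form of the carnitine palmitoyltransferase that commits long chains to oxidation and is inhibited by malonyl-CoA, ran from 64.5 to 105 FPKM in the Con mice (median 81.0) and from 62.3 to 80.2 FPKM in the Exe mice (median 73.8). None of the 6 Exe mice was above the Con median, but 5 of them lay within the Con range, and the Con mice were more widely spread (SD 16.7 FPKM) than the Exe mice (SD 6.52 FPKM). The log2 fold change was -0.15 (95% interval -0.40 to 0.099, adjusted p = 0.922), and -0.081 without Con 2, the highest mouse.

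Cpt2, which hands the chain back to coenzyme A inside the mitochondrion, ran from 50.4 to 63.5 FPKM in the Con mice (median 56.7) and from 45.1 to 67.9 FPKM in the Exe mice (median 53.0). The Exe mice fell on both sides of the Con range, 3 below it and 1 above it (log2 fold change -0.067, 95% interval -0.29 to 0.15, adjusted p = 0.957). The log2 fold change of Cpt2 was -0.015 without Exe 3 and -0.13 without Exe 6. Slc25a20, the carnitine-acylcarnitine exchanger between them, averaged 71.2 ± 8.54 FPKM in the Con mice and 71.4 ± 6.56 FPKM in the Exe mice (SD, n = 6 each).

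Among the 10 acyl-CoA dehydrogenases, which take the first electrons from the chain, 7 had a higher mean in the Exe mice and the median log2 fold change was 0.038. Acad10, a less studied member of the family, had the smallest p of the pathway. It ran from 6.50 to 8.52 FPKM in the Con mice (median 7.69) and from 7.77 to 11.8 FPKM in the Exe mice (median 8.79). All 6 Exe values were above the Con median and 5 exceeded the Con range, with Exe 5 the exception.

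The log2 fold change of Acad10 was 0.23 (95% interval 0.043 to 0.42), with an unadjusted p of 0.019 in limma and an adjusted p of 0.793. For the same values the exact permutation test, two-sided, gave p = 0.013, where 0.00216 is the smallest p that 6 against 6 mice allow. Without Exe 2, the highest mouse, the log2 fold change was 0.17. The related Acad12, which shares part of its transcript with Acad10, was at 2.80 ± 0.38 FPKM in the Con mice and 2.92 ± 0.22 FPKM in the Exe mice (SD, n = 6 each). The ratio of Acad10 to Acad12 was 2.81 ± 0.55 in the Con mice and 3.17 ± 0.47 in the Exe mice (exact two-sided permutation p = 0.251).

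Acadvl, the membrane-bound enzyme for very long chains, was the highest dehydrogenase. It ran from 177 to 213 FPKM in the Con mice (median 195) and from 185 to 228 FPKM in the Exe mice (median 207), with 3 Exe values beyond the Con range at its upper end and none below it (log2 fold change 0.083, 95% interval -0.058 to 0.22, adjusted p = 0.922). Acadm, the medium-chain enzyme, ran from 107 to 140 FPKM in the Con mice (median 128) and from 118 to 152 FPKM in the Exe mice (median 131). Only Exe 2 exceeded the Con range of Acadm (log2 fold change 0.056, 95% interval -0.11 to 0.22, adjusted p = 0.95, and 0.010 without Con 1).

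Acadl, the long-chain enzyme, ran from 59.2 to 79.5 FPKM in the Con mice (median 74.3) and from 65.8 to 102 FPKM in the Exe mice (median 81.6). The highest value was again that of Exe 2 and the lowest that of Con 1, and 4 Exe values exceeded the Con range while Exe 3 and Exe 5 were within it. Its log2 fold change was 0.15 (95% interval -0.072 to 0.37, adjusted p = 0.90), and 0.080 without Exe 2.

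The other 5 dehydrogenases had small estimates. Acads, the short-chain enzyme, averaged 86.2 FPKM and was the steadiest gene of the pathway, with an SD within groups of 0.088 on the log2 scale and a log2 fold change of -0.038. Acad11 averaged 77.9 FPKM (log2 fold change -0.018), Acadsb, which acts on a branched chain from isoleucine, 39.3 FPKM (0.025), Acad8, which acts on one from valine, 21.5 FPKM (-0.016), and Acad9, which also serves the assembly of respiratory complex I, 11.8 FPKM (0.010). The estimates of these last 4 took the other sign in 4 to 6 of 23 alternative settings each, and that of Acads in none.

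The 5 genes from hydration to thiolysis were all higher on average in the Exe mice, with log2 fold changes from 0.048 to 0.089. Single mice moved these estimates by over 1.5 times. Without Con 1, Hadha was at 0.0027 and Hadhb at 0.0023, and without Exe 2, Hadh was at 0.021, Acaa2 at 0.022 and Echs1 at 0.050. Hadha, the trifunctional subunit that hydrates and oxidizes long chains, ran from 99.4 to 133 FPKM in the Con mice (median 119) and from 106 to 132 FPKM in the Exe mice (median 124). Every Exe mouse was within the Con range, and the log2 fold change was 0.048 (95% interval -0.12 to 0.22, adjusted p = 0.959). Its partner Hadhb, which cleaves the chain, ranged from 88.8 to 116 FPKM among Con livers and from 94.9 to 129 FPKM among Exe livers.

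The subunits kept a nearly constant proportion across the 12 livers. The ratio of Hadha to Hadhb was 1.09 ± 0.039 in the Con mice and 1.08 ± 0.043 in the Exe mice (SD, n = 6 each, exact two-sided permutation p = 0.812). It ran from 1.02 in Exe 2 to 1.15 in Con 3, a spread of 1.12 times, while Hadha itself varied 1.34 times and Hadhb 1.46 times between mice. The proportion of the electron transfer flavoprotein subunits was looser. The ratio of Etfa to Etfb varied 1.35 times, as much as Etfa (1.33 times) and Etfb (1.31 times) on their own, with means of 0.54 ± 0.057 in the Con mice and 0.56 ± 0.050 in the Exe mice (SD, n = 6 each, exact two-sided permutation p = 0.561). Acsl1 was 1.38 ± 0.25 times as high as Acsl5 in the Con mice and 1.42 ± 0.40 times in the Exe mice (exact two-sided permutation p = 0.864). Of the 4 ratios compared, none had a p below 0.05 before any adjustment.

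**Figure D3:**
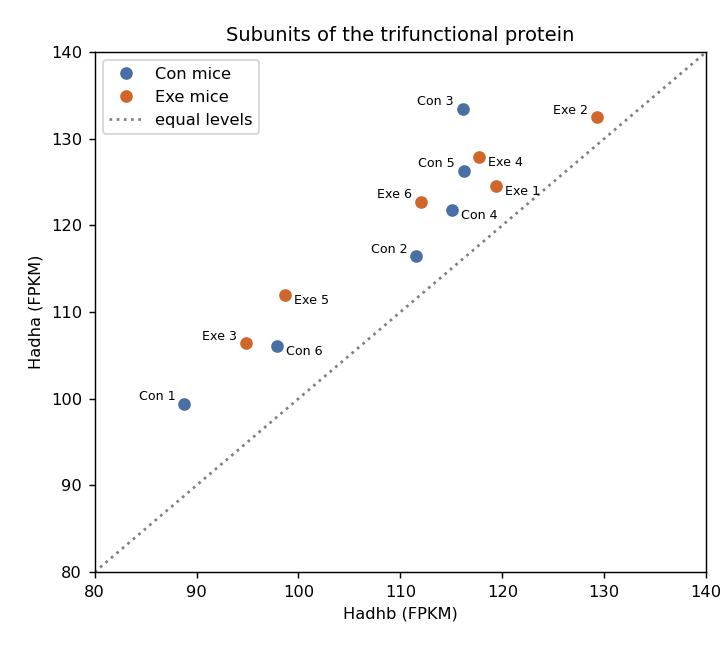
FPKM of Hadha against FPKM of Hadhb in each mouse (blue, Con; orange, Exe), with a dotted line where both are equal. All 12 mice lie above the line, with ratios between 1.02 and 1.15.

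Hadh, the dehydrogenase for short hydroxyacyl chains, averaged 147 ± 7.98 FPKM in the Con mice and 153 ± 16.6 FPKM in the Exe mice, and Echs1, the matching hydratase, 146 ± 10.7 and 155 ± 13.4 FPKM (SD, n = 6 each). Acaa2 ran from 544 to 666 FPKM in the Con mice (median 584) and from 522 to 690 FPKM in the Exe mice (median 644). For Acaa2, Exe 5 was below and Exe 2 above the whole Con range, and the log2 fold change was 0.054 (95% interval -0.11 to 0.22, adjusted p = 0.954).

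Unsaturated chains need extra steps, and 2 of their 3 enzymes were higher on average in the Exe mice. Eci1, a mitochondrial enoyl-CoA isomerase, averaged 127 FPKM over the 12 mice and had a log2 fold change of 0.036 (-0.0032 without Con 1). Decr1, the dienoyl-CoA reductase, averaged 55.1 FPKM and had one of 0.048 (0.016 without Con 1). Eci2, an isomerase found in mitochondria and peroxisomes, was the exception with -0.13 (95% interval -0.39 to 0.14, adjusted p = 0.931). Its Con mice ran from 105 to 175 FPKM (median 125) and its Exe mice from 95.6 to 130 FPKM (median 124), and the high end was Con 5, without which the log2 fold change was -0.037.

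The 3 genes of electron transfer had log2 fold changes between 0.0080 and 0.081. Etfa ran from 192 to 240 FPKM in the Con mice (median 220) and from 216 to 255 FPKM in the Exe mice (median 232). The Exe values of Etfa were above the Con median in 5 of 6 mice (log2 fold change 0.081, adjusted p = 0.922, and 0.041 without Con 1). Etfdh, which passes the electrons of the flavoprotein to ubiquinone, was at 102 FPKM in both groups, with an SD of 10.5 in the Con mice and 6.16 in the Exe mice.

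The 2 genes of ketogenesis differed in sign. Bdh1, which reduces acetoacetate to beta-hydroxybutyrate, ran from 52.1 to 74.3 FPKM in the Con mice (median 66.0) and from 50.1 to 68.2 FPKM in the Exe mice (median 57.5). Only 1 Exe mouse was above the Con median and 2 were below every Con mouse, and the log2 fold change was -0.15 (95% interval -0.36 to 0.068, adjusted p = 0.90). Acat1, the thiolase that joins and splits acetoacetyl-CoA, ran from 70.2 to 102 FPKM in the Con mice (median 87.2) and from 81.1 to 113 FPKM in the Exe mice (median 91.7). Its log2 fold change was 0.12 (95% interval -0.12 to 0.36, adjusted p = 0.931) and 0.059 without Con 1. It was -0.093 with the mean log2(FPKM + 1) of the hepatocyte markers as a covariate.

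Ppara itself, the receptor, was at 30.5 ± 4.17 FPKM in the Con mice and 29.4 ± 5.78 FPKM in the Exe mice (SD, n = 6 each, log2 fold change -0.065, adjusted p = 0.966), and the ranges of both groups overlapped.

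Genes around the pathway were read from lists of 76 symbols, of which 74 were in the tables and 64 were tested. None of the 64 passed an adjusted p of 0.05, and 14 had an unadjusted p of 0.05 or less (beside 6.21% of all genes), 12 higher and 2 lower in the Exe mice. The list of branched-chain and odd-chain steps also contained genes of other steps, such as Echdc1. This mixed list held 8 of the 14, all 8 higher in the Exe mice, among 20 tested with a median log2 fold change of 0.10. Uptake and other activation held 2 of 12, carnitine and malonyl-CoA control 3 of 9, ketone bodies 1 of 9 and regulators 0 of 14. The genes named next were taken from the 14 for their small unadjusted p in limma. That choice favours genes whose groups do not overlap, so a lack of overlap is not a separate result. The share of all genes tested without overlap was not counted. Values of the named genes under other settings are not given here.

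Echdc1, which removes a faulty product of fatty acid synthesis, was the only named gene of these lists without overlap, at 23.4 to 27.7 FPKM among Con livers and 28.4 to 30.3 FPKM among Exe livers (log2 fold change 0.19, 95% interval 0.077 to 0.30, adjusted p = 0.708). Acacb, the carboxylase whose malonyl-CoA restrains Cpt1a, was at 7.67 ± 1.07 FPKM in the Con mice and 12.2 ± 3.77 FPKM in the Exe mice (SD, n = 6 each, log2 fold change 0.57, adjusted p = 0.761), with 4 Exe mice above every Con mouse. Crot, the peroxisomal carnitine octanoyltransferase, was lower in the Exe mice at 174 ± 45.2 FPKM beside 243 ± 37.2 FPKM (log2 fold change -0.51, adjusted p = 0.789), with 3 Exe mice below every Con mouse.

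The plasma membrane fatty acid transporter Slc27a1 was also lower in the Exe mice (2.25 beside 3.05 FPKM, log2 fold change -0.31, adjusted p = 0.789). Mccc1, a carboxylase subunit of leucine breakdown, and Slc16a7, a monocarboxylate transporter, were higher, with log2 fold changes of 0.18 (adjusted p = 0.789) and 0.34 (adjusted p = 0.793). Each of these 6 genes had an unadjusted p below 0.05 in limma and none passed the adjustment over all genes.

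Mice of the same group differed from each other. The SD within groups on the log2 scale had a median of 0.15 over the 33 genes and 0.14 over all genes tested. Exe 2 was the highest of the 12 mice for 12 of the 33 genes, and was so for 18.7% of all genes. Con 1 was the lowest for 15 of the 33, and for 14.3% of all genes, and Exe 5 was the lowest for 7, and for 6.42% of all genes. The 33 genes together summed to between 3389 FPKM in Con 1 and 4333 FPKM in Exe 2, which was 0.419% and 0.589% of all FPKM of these mice.

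**Figure D4:**
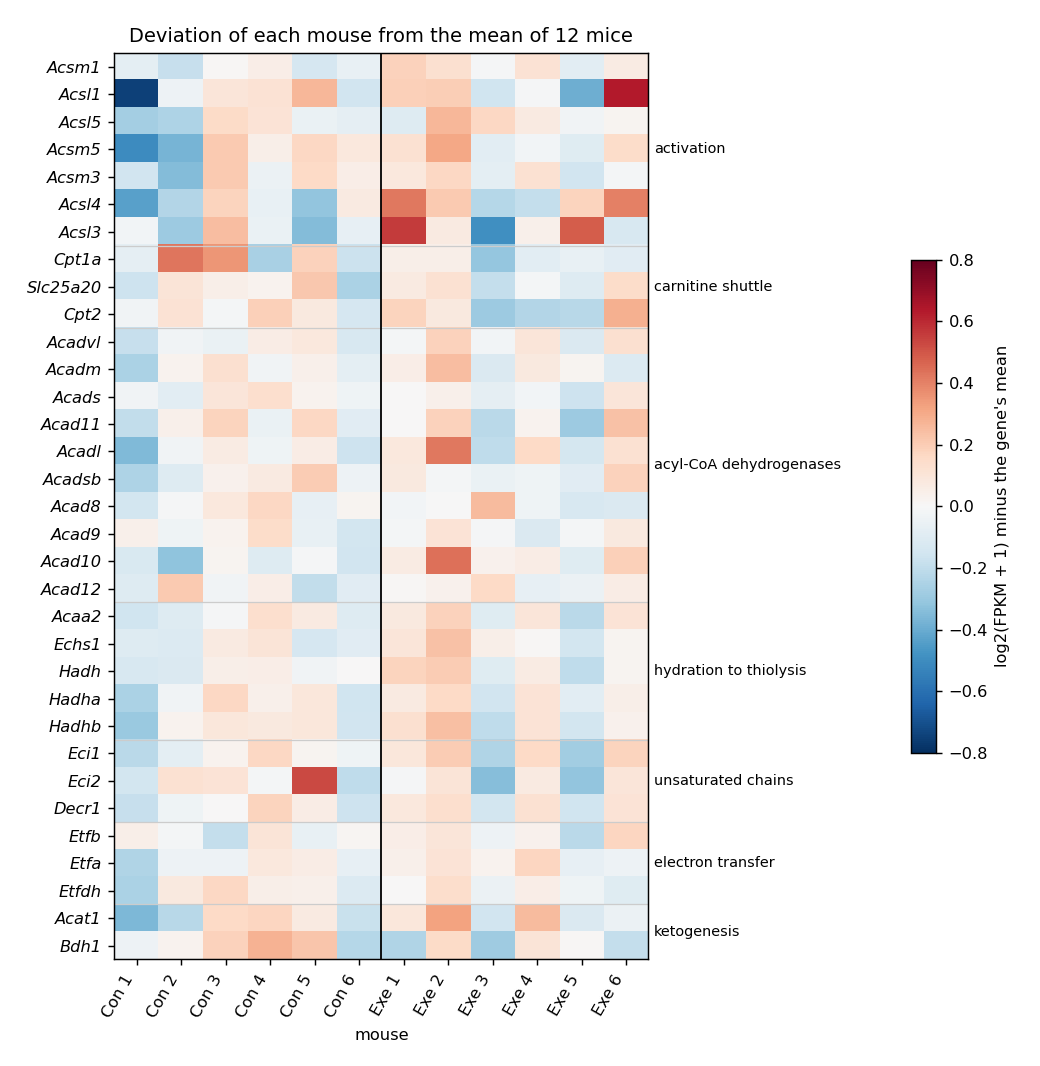
Deviation of each mouse from the mean of the 12 mice for each gene, as the difference in log2(FPKM + 1) on a colour scale (red, above the mean; blue, below), with the Con mice left of the black line and the Exe mice right of it. The column of Con 1 is mostly blue, with 2 of 33 genes above their mean, and that of Exe 2 mostly red, with 31 of 33.

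Summed levels of cell type markers also differed between mice. The hepatocyte list was mostly of secreted plasma proteins, such as Alb, Ttr and Tf. The 9 measured hepatocyte markers summed to 66040 FPKM in Con 1, the lowest of the 12 mice, and to 90288 FPKM in Exe 2, the highest. With the mean log2(FPKM + 1) of these markers as a covariate, 16 of the 33 genes were above 0 and 17 below (49.1% of all genes above). The median was then -0.011 beside -0.0027 for all genes, and 0 of the 33 had an unadjusted p of 0.05 (4.51% of all genes). Over the 12 mice the lists ranged from 101 FPKM (Exe 2) to 270 FPKM (Con 2) for Kupffer cells, 62.1 to 105 for sinusoidal endothelium, 48.3 to 95.5 for stellate cells and fibroblasts, 25.4 to 76.8 for bile duct epithelium, 235 to 1290 for red blood cells, 9.10 to 53.9 for neutrophils and 8.51 to 29.9 for pancreatic acinar cells. They ranged from 3.19 to 8.61 FPKM for B and plasma cells, 1.70 to 4.63 for T cells, 0.29 to 1.61 for skeletal muscle, 0.28 to 3.29 for heart muscle and 0.47 to 1.05 for adipose tissue. No list had a measured gene at 0 in all 12 mice. The part of these cells in the values of the 33 genes was not tested beyond the hepatocyte covariate. That covariate cannot separate hepatocyte content from the level of these transcripts per cell.

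An acute-phase response was present to different degrees in these livers, and the 33 genes were set against it. The acute-phase score, the mean log2(FPKM + 1) of 8 secreted proteins of that response such as Saa1, Saa2 and Lcn2, ran from 6.64 to 10.8 in the Con mice and from 6.69 to 10.7 in the Exe mice, so that both groups covered the same range. In a model with the group as a term, the slope on the score was below 0 for 29 of the 33 genes and above 0 for 4, beside 58.8% and 41.2% of all genes, with a median of -0.053 log2 units per unit of score beside -0.0085 for all genes. At an unadjusted p of 0.05, 15 of the 33 had a slope below 0 and 0 had one above, beside 9.86% of all genes below and 6.58% above. None passed an adjusted p of 0.05, which 0.567% of all genes did.

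The smallest adjusted p values on this score belonged to Acaa2 (slope -0.074, 95% interval -0.11 to -0.039, adjusted p = 0.0604), Decr1 (slope -0.072, adjusted p = 0.0801), Acat1 (slope -0.10, adjusted p = 0.0856), Eci1 (slope -0.087, adjusted p = 0.0916), Acadvl (slope -0.058, adjusted p = 0.0925) and Etfa (slope -0.056, adjusted p = 0.0928). Acaa2 was at 666, 637, 690 and 647 FPKM in the 4 mice with the lowest scores (Con 4, Con 5, Exe 2 and Exe 4), and at 544 and 522 FPKM in Con 1 and Exe 5, which had the highest. All 3 enzymes for unsaturated chains, 4 of the 5 genes from hydration to thiolysis and 4 of the 10 dehydrogenases had an unadjusted p of 0.05 or less. So had 2 of 7 for activation, 1 of 3 for electron transfer, 1 of 2 for ketogenesis and 0 of 3 for the carnitine shuttle, beside 16.4% of all genes. Slc25a20 of the shuttle was close to this limit (slope -0.054, unadjusted p = 0.0506 in limma), and a difference between steps was not tested. Cpt1a had a slope of 0.011 (95% interval -0.076 to 0.097).

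Cyp4a10 and Cyp4a14, microsomal omega-hydroxylases that are classical PPARA targets, gave a second score as their mean log2(FPKM + 1). It ran from 3.70 to 6.10 in the Con mice and from 5.83 to 8.31 in the Exe mice, so the model again held the group as a term. The slope on this score was above 0 for 32 of the 33 genes and below 0 for 1, beside 63.0% and 37.0% of all genes, with a median of 0.11 beside 0.022. At an unadjusted p of 0.05, 20 of the 33 were above 0 and 0 below, beside 9.49% of all genes above and 4.72% below. None passed an adjusted p of 0.05, which 0.0293% of all genes did.

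The smallest adjusted p on the Cyp4a score was that of Acadl (slope 0.21, 95% interval 0.12 to 0.29, adjusted p = 0.0814). Acadvl (0.12, adjusted p = 0.133), Hadhb (0.16, adjusted p = 0.142), Acsl1 (0.32, 95% interval 0.13 to 0.50, adjusted p = 0.152, and a slope of 0.50 without Exe 2), Acad11 (0.17, adjusted p = 0.156) and Acsm5 (0.21, adjusted p = 0.163) followed. Acsl3 alone had a slope below 0 (-0.11, 95% interval -0.34 to 0.12).

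**Figure D5:**
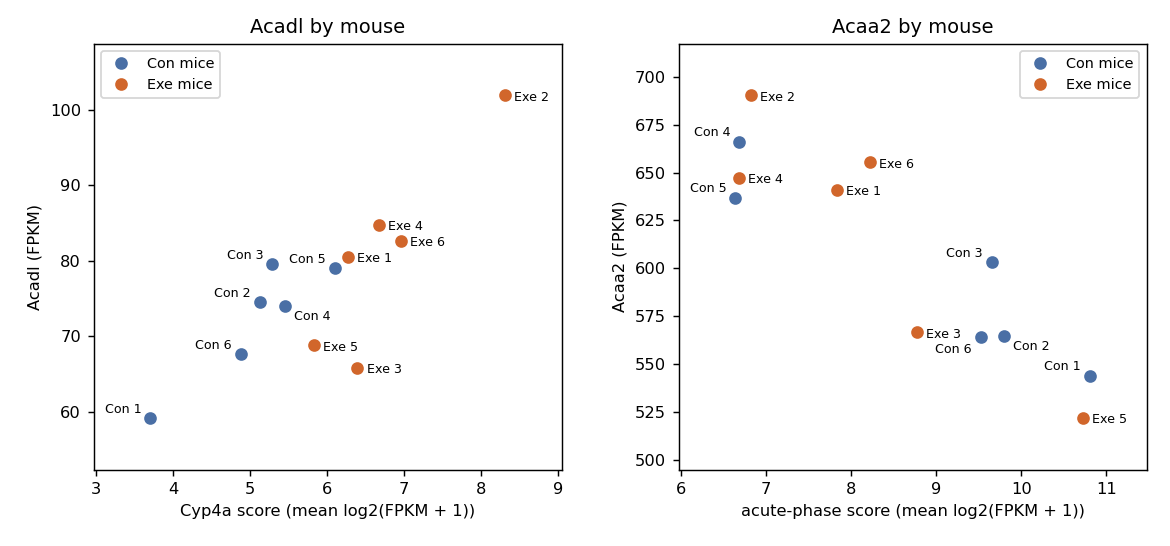
Left, FPKM of Acadl against the Cyp4a score, and right, FPKM of Acaa2 against the acute-phase score, with 1 labelled point per mouse (blue, Con; orange, Exe). Acadl is lowest in Con 1 (59.2 FPKM) and highest in Exe 2 (102 FPKM), and Acaa2 is highest in Exe 2 (690 FPKM) and lowest in Exe 5 (522 FPKM).

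The scores were related to each other, so their slopes are not separate results. Over the 12 mice Pearson's r was -0.66 (permutation p = 0.0171) and Spearman's rho -0.62 (permutation p = 0.0377), for 1 relation computed. Without Con 1 and Exe 5, the mice farthest from the median acute-phase score, r was -0.58 (permutation p = 0.0735). Within the Con mice r was -0.82 (n = 6, exact permutation p = 0.0278) and within the Exe mice -0.69 (n = 6, exact permutation p = 0.142). With both scores in 1 model, 2 of the 33 genes had an unadjusted p of 0.05 for the acute-phase score and 3 for the Cyp4a score, beside 5.65% and 3.89% of all genes. Without Con 1 alone the acute-phase count was 10 in place of 15 (13% of all genes) and the Cyp4a count 13 in place of 20 (10.4%). Without Con 1 and Exe 2 the counts were 7 and 9 (10.7% and 8.53% of all genes), and without Con 1 and Exe 5 they were 6 and 6 (7.74% and 6.76%). With the mean log2(FPKM + 1) of the hepatocyte markers as a covariate they were 16 and 16 (14.2% and 11.1%). Each score is itself read from these RNA libraries, and the hepatocyte sum was lowest and highest in the same 2 mice as the Cyp4a score. Con 1, where that sum was lowest, also had the highest acute-phase score.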

How the data were processed

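The authors sequenced 1 liver library per mouse (6 Con, 6 Exe), dropped low-quality reads, aligned the remainder to GRCm39 with HISAT and deposited FPKM values to 2 decimals for each mouse. The submitters' processing notes also name Bowtie2 and mm10. The program that computed the FPKM, its annotation and its strand setting are not given in the sources used here. The authors' own test needs counts, so limma was used here instead. Depth in reads is unknown, and the spread between 6 mice is the only error given. FPKM summed to between 735200 and 820107 per mouse. A rough relative depth from 27 low genes was between 0.980 and 1.01. These genes were kept only where the values of all mice lay near whole multiples of a shared step. Such a choice presupposes similar depth, so it cannot show that depth was equal.

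FPKM were put on the log2 scale after adding 1, and the 10241 genes that reached 1 FPKM in 6 or more mice were fitted with limma 3.58.1 in R 4.3.3 (lmFit, eBayes with a trend, Benjamini-Hochberg adjustment over all genes tested). The fit was tested on simulated data. Slopes on the 2 scores were fitted the same way with the group as a term. The genes of each score stayed in the fit and in the adjustment, and were left out only from the counts and medians over all genes. Ratios of single pairs were compared by an exact two-sided permutation test over 924 arrangements. Correlations over 12 or 10 mice used 100000 permutations. Summaries were made in Python 3.11.15 (pandas 2.3.3 and numpy 2.4.6), permutations with scipy 1.17.1, and figures with matplotlib 3.10.9.

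The genes, the pathway lists, the scores and the 13 marker lists were chosen with earlier results of these data known, and give no independent support. All 33 genes were named with a level. Described in full were those at an unadjusted p of 0.05, the 5 with the largest absolute log2 fold change, Cpt1a, Cpt2, Acadvl, Acadm, Hadha, Acsl1, Acsl5 and Bdh1, and up to 6 genes with the smallest p for each slope. From the pathway lists, up to 6 genes at an unadjusted p of 0.05 were named, with Ppara. Other genes that the rule added to this last group are not reported here. Other values given for genes of the 33 (Eci2, Etfdh, Acads) were chosen after they were seen. Alternatives were quantile normalization, an equal FPKM sum, no filter and a stricter filter of 5 FPKM, a pseudocount of 0.1, robust moderation, the replicate number as a block, an acute-phase covariate, slopes without the group term, and each mouse left out in turn. Both scores in 1 model, the hepatocyte covariate and the removal of 2 mice together were added after seeing the data. Promoters were read from RefSeq and transcripts from GENCODE M21.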

Additional observations from a re-analysis of the deposited data

Results flagged for a closer look

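Acad8, the isobutyryl-CoA dehydrogenase, was the 1 gene of the 33 with a mouse far from the others of its group. It was at 25.65 FPKM in Exe 3 while the remaining Exe mice lay between 19.49 and 21.32 FPKM, a gap of 0.703 of the group's range, which is above Dixon's 95% critical value for 6 samples. Of 72 sets of 6 values examined, 1 stood out in this way, and chance gives about 3.6.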

How the results depend on the processing

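No setting gave a gene of the 33 an adjusted p of 0.05 between the groups. The sample names do not say whether the numbers shared by Con and Exe mice pair them. The correlation of the deviations of same-numbered mice ran from -0.478 to 0.165, which cannot decide it. With the number as a replicate block, 0 of the 33 genes had an unadjusted p of 0.05 in place of 2 (5.54% of all genes). That count was 1 after quantile normalization, 1 with the acute-phase covariate, 0 with the hepatocyte covariate, 0 without Con 1 and Exe 2, and 1 to 3 when single mice were left out. For the acute-phase score 1 gene (Acaa2) passed an adjusted p of 0.05 with the 5 FPKM filter (fewer genes tested) and 1 without the group term, and 0 to 2 when single mice were left out (2 without Con 3, Acaa2 and Acat1), and the cause was not tested. The unadjusted counts were 9 for that score and 13 for the Cyp4a score after quantile normalization (15.8% and 13.4% of all genes), 2 and 3 with both scores (5.65% and 3.89%), 7 and 9 without Con 1 and Exe 2 (10.7% and 8.53%), and 6 and 6 without Con 1 and Exe 5 (7.74% and 6.76%). When single mice were left out they were 10 (without Con 1) to 20 (without Con 3) for the acute-phase score and 13 (without Con 1) to 21 for the Cyp4a score. Of 1353 values under alternatives, 69 were log2 fold changes of single genes that took the other sign, and none of these passed an adjusted test. The median log2 fold change of the 33 genes also took it, at -0.011 with the hepatocyte covariate and -0.0053 without Con 1 and Exe 2. Of the 33 genes, 12 kept their sign throughout. The log2 fold changes of single genes with the other sign were as follows. Without Con 1 and Exe 2, they were Acsl1 -0.0051, Acsm3 -0.014, Acsm5 -0.014, Slc25a20 -0.047, Acadm -0.033, Acadsb -0.017, Acad9 -0.0021, Hadha -0.024, Hadhb -0.040, Acaa2 -0.0040, Eci1 -0.040, Decr1 -0.0053 and Etfdh -0.070. With the hepatocyte covariate, they were Acsl5 -0.022, Acsm3 -0.096, Acsm5 -0.023, Cpt2 0.046, Acadm -0.082, Hadha -0.028, Hadhb -0.047, Hadh -0.028, Acaa2 -0.012, Etfa -0.038, Etfdh -0.12 and Acat1 -0.093. After quantile normalization, they were Slc25a20 -0.017, Acadm -0.0051, Acadsb -0.012, Hadha -0.014, Hadh -0.0025, Eci1 -0.019, Etfb -0.023 and Etfdh -0.042. With the acute-phase covariate, they were Slc25a20 -0.028, Acadsb -0.010, Eci1 -0.022, Decr1 -1.8e-05 and Etfdh -0.017. Without Con 1 and Exe 5, they were Slc25a20 -0.0017, Acadsb -0.0014 and Etfdh -0.034. With an equal FPKM sum, they were Acad8 0.020 and Acad11 0.020. When single mice were left out, the ranges that crossed 0 were Acsm3 -0.024 to 0.088, Slc25a20 -0.042 to 0.052, Acadsb -0.022 to 0.069, Acad8 -0.068 to 0.015, Acad9 -0.018 to 0.040, Acad11 -0.067 to 0.038, Eci1 -0.0032 to 0.096, Etfb -0.0020 to 0.079 and Etfdh -0.042 to 0.042. In all these settings the cause was not tested. Without read counts, count-based tests were not run and counting error cannot be given.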
